A study of Mus musculus with 21 samples.

Results

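The 8 genes described here are grouped as inhibitory receptors of T cells: Ctla4, Pdcd1, Lag3, Tigit, Havcr2, Entpd1, Cd244a and Cd160. Of these, Entpd1 encodes an ectoenzyme and Cd244a a receptor that can also activate, and both are counted as receptors here. All 8 were chosen by name, for a known part in restraining T cells and with earlier results of these data known. They are 8 of the 17516 genes counted in the series. RNA was counted in single mouse OT1 cells, CD8 T cells with 1 transgenic T cell receptor, specific for an ovalbumin peptide. The 21 libraries each held 1 condition, so no condition was replicated, no p-value is given, and every interval covers counting error only. The naive library was made on day 0, before activation. For the other libraries the T cells were first stimulated on beads coated with anti-CD3 and anti-CD28. They were then cultured without added cytokine (days 3 and 5), or with IL-2, IL-15 or IL-2v (days 3, 5 and 10). IL-2v is called a mutant IL-2 in the labels. Cytokine doses were 5 and 50 IU/mL. For 6 libraries the treatment label named another cytokine than the title: interleukin-3 in the 3 titled as IL-2 at 50 IU/mL and interleukin-16 in the 3 titled as IL-15 at 50 IU/mL. The titles were followed. The labels used here name no strain, age or number of animals, and nothing in them ties the libraries to separate cultures. The word culture is used below for the libraries of 1 cytokine and dose over the days, and no label says that they came from the same cells. The extraction text speaks of cells sorted from tumours, while the growth text describes culture. Day 7 of the culture was not analysed here.

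Inhibitory receptors dampen a T cell that has seen its antigen. Most are absent or low on resting cells, appear after activation, and stay high where stimulation goes on, as in tumours and chronic infection, where cells with several of them are called exhausted. IL-2, IL-15 and IL-2 variants signal through shared receptor chains to STAT5, and differ in the chains they need for binding. Transcript counts do not measure protein at the cell surface, where CTLA-4 in particular is kept low by internalisation.

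The libraries kept 3250 to 7105 cells and 10589950 to 32648496 UMIs (unique molecular identifiers, tags that each mark 1 captured RNA molecule). Levels are given as CPM, the UMIs of a gene scaled to the same total in every library. The T cell gene Cd3d had a UMI in 93.0% to 99.5% of the cells of a library, and Cd4 in at most 1.49%. The B cell list as a whole summed to 30.1 to 756 CPM, nearly all of it Ighm, the myeloid list to at most 4.54 CPM, the CD4 T cell list to at most 4.765 CPM and the erythroid list to at most 3.15 CPM. Pairs of libraries shared 1 to 19 cell barcodes. The library of IL-2 at 50 IU/mL on day 5 was the shallowest, with a median of 3016 UMIs per cell. Shares of cells are therefore given after each cell was thinned at random to 2000 UMIs, without the cells that held fewer. Of genes that CD8 T cells should lack, Lyz2, Ms4a1 and Csf1r had a UMI in at most 0.0895% of thinned cells of any library, and Cd4 in at most 0.447%. Others of the B cell list were found more often, Ighm in 11.5% to 90.3% of cells before thinning and Cd79b in up to 7.45%. These shares give no limit for stray RNA of the receptors, whose source would be T cells of the same library.

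The genes lay on 6 chromosomes of the mouse genome (GENCODE annotation of GRCm38, the assembly that the submitters' notes call mm10). Ctla4 (chr1:60887000-60915832, plus strand), Pdcd1 (chr1:94038305-94052553, minus strand) and Cd244a (chr1:171559193-171609746, plus strand) were on chromosome 1. Cd160 lay at chr3:96798763-96829351 (minus strand), Lag3 at chr6:124904361-124911705 (minus strand), Havcr2 at chr11:46454935-46481255 (plus strand), Tigit at chr16:43648867-43664146 (minus strand) and Entpd1 at chr19:40612366-40741602 (plus strand). All 8 are protein-coding. Of their exons, only those of Cd160 overlapped exons of another gene, with 68 bases shared with Pdzk1 on the opposite strand.

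Start sites in the RefSeq table used here matched 7 of the 8 members, 9 sites in all. The 250 bases before the start are printed for 4 genes, chosen by the course of their levels: Ctla4, Havcr2, Cd244a and Cd160. Ctla4 was highest on day 3, and Cd160 on day 10 with IL-2 at 5 IU/mL. Havcr2 and Cd244a shared a course and were highest on day 10 with IL-2 at 50 IU/mL. Sequences run 5′ to 3′ on the strand of the gene (RefSeq, GRCm38.p6). Capitals mark matches, on either strand, to 5 short motifs: NFAT (GGAAA), AP-1 (TGANTCA), RUNX (TGTGGTT), STAT (TTCNNNGAA) and TCF (CTTTGA).
Ctla4, chr1:60908775-60909024, plus strand: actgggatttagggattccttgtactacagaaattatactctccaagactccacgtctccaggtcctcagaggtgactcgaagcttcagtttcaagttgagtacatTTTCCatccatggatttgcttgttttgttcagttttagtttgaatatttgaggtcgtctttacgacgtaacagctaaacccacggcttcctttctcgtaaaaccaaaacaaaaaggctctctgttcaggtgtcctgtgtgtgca
Havcr2, chr11:46454681-46454930, plus strand: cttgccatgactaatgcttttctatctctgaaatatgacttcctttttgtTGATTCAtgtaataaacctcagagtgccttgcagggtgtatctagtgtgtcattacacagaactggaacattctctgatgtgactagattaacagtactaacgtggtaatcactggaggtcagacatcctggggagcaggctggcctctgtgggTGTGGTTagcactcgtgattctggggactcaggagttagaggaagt
Cd244a, chr1:171558943-171559192, plus strand: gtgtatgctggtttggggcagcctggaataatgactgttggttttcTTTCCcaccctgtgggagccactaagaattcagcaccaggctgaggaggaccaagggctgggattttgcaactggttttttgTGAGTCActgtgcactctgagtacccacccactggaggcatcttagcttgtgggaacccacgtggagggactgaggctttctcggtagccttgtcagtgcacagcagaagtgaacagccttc
Cd160, second start site, chr3:96814522-96814771, minus strand: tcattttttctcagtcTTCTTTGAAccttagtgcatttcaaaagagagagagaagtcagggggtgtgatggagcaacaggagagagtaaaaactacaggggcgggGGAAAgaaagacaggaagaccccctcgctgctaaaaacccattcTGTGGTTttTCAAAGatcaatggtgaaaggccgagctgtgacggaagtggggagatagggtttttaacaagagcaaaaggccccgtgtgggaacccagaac
Positions are counted back from the start site to the first base of the match. The Ctla4 window held an NFAT match at -144. Havcr2 held an AP-1 match at -200 and a RUNX match at -46. Cd244a held an NFAT match at -204 and an AP-1 match at -122. The second start site of Cd160 held a STAT match at -234 that overlaps a TCF match at -232, an NFAT match at -145, a RUNX match at -101 and a second TCF match at -92. It is printed because it held more matches, a choice made after they were seen. The first start site of Cd160 (chr3:96829352-96829601) held a RUNX match at -77 and no match to the 4 other motifs. Of 32851 RefSeq promoter windows of this length, 55.6% held the NFAT letters, 13.8% the TCF letters, 7.02% the STAT letters, 6.75% the AP-1 letters and 4.396% the RUNX letters. The STAT letters were found at no other start site of the 7 genes, and the AP-1 letters at none beside those of Havcr2 and Cd244a. Entpd1, highest in the same library as Havcr2 and Cd244a, is not printed and held no AP-1 match at either start site. A match describes the letters and was not tested as a binding site.

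Ctla4 and Lag3 were far higher in activated cells without added cytokine than in naive cells. Ctla4 encodes CTLA-4, which competes with CD28 for its ligands CD80 and CD86. It was at 5.04 CPM in naive cells (95% Poisson interval 4.06 to 6.17) and at 358 CPM (350 to 365.5) on day 3 without cytokine. Lag3 encodes a receptor related to CD4 that binds MHC class II. Lag3 stood at 1.08 CPM in naive cells and at 84.9 CPM on day 3 without cytokine. On the log2(CPM + 1) scale, which understates the change of low genes, the differences were 5.89 for Ctla4 and 5.37 for Lag3. A difference of at least 2-fold was called for genes that reached 20 CPM in either library. A gene that reached it in only 1 library of a pair could only be called higher in that library, as with Ctla4 and Lag3 here. Of the 8 receptors 3 reached 20 CPM in this pair and 2 were called higher, beside 11.1% of all 6171 genes tested called higher. The third, Cd160, was at 25.9 CPM in naive cells and 35.6 CPM after activation. The other 5 stayed under 20 CPM in both libraries, with Pdcd1 at 3.63 and 9.66 CPM, Entpd1 at 1.08 and 8.225 CPM, Havcr2 at 0.217 and 1.75 CPM, Tigit at 0.162 and 1.84 CPM (3 and 41 UMIs), and Cd244a at 1.245 and 0.944 CPM.

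**Figure D1:**
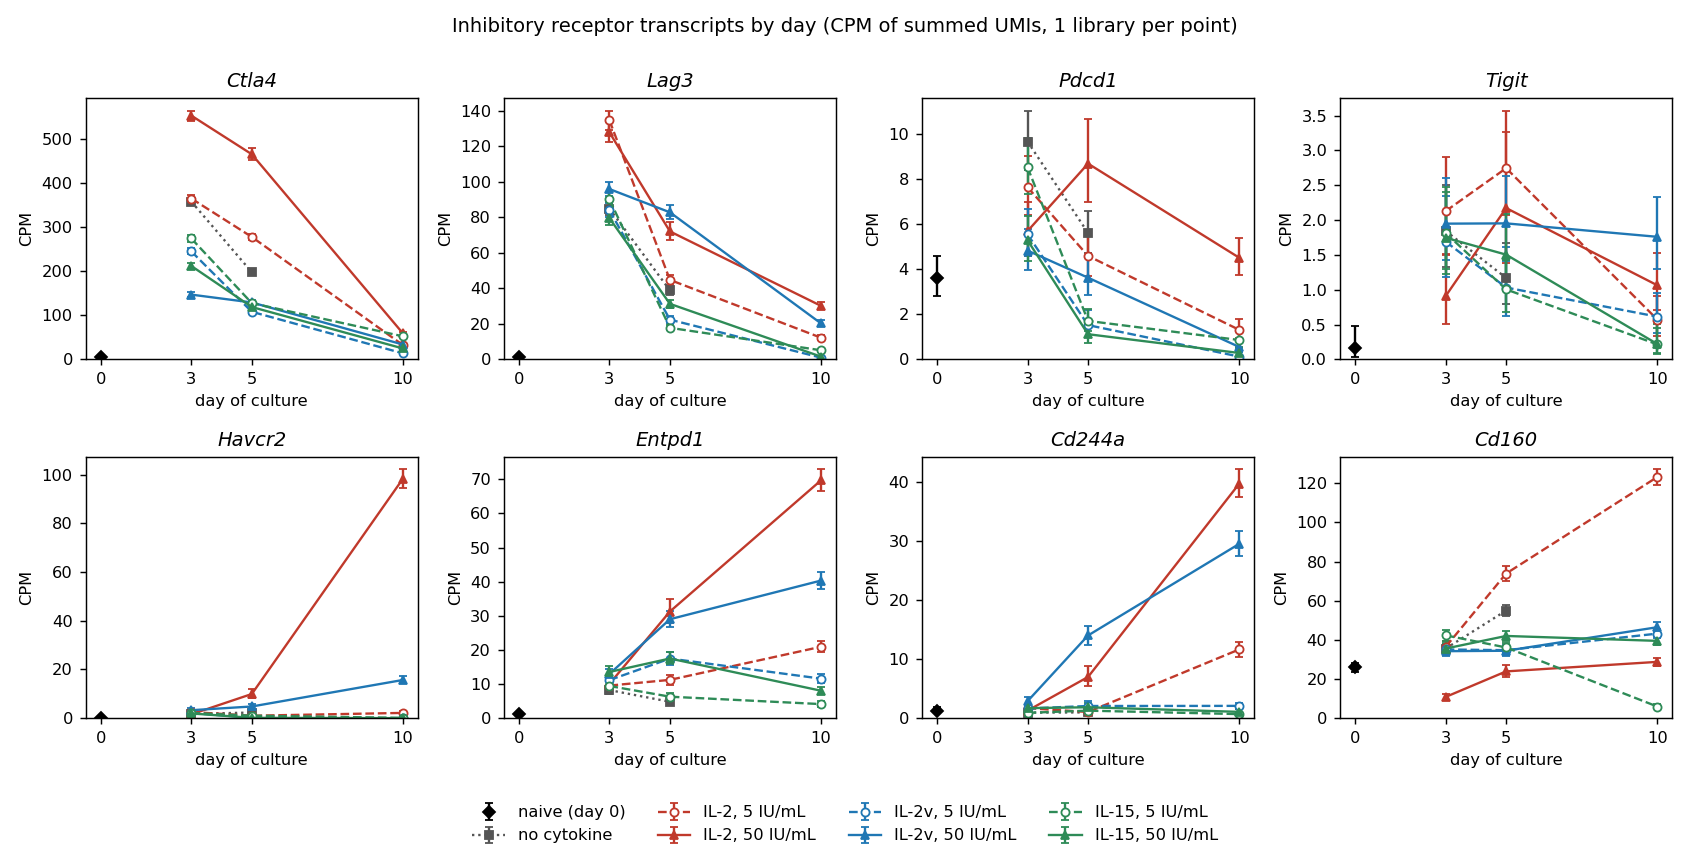
Level of each receptor (y axis, CPM, linear, a separate scale per gene) against day of culture (x axis). Each point is 1 library, bars are exact 95% Poisson intervals, and colours and line styles mark the cytokine and dose. Ctla4 and Lag3 were highest on day 3, Havcr2, Entpd1 and Cd244a on day 10 with IL-2 at 50 IU/mL (98.3, 69.7 and 39.8 CPM), and Cd160 on day 10 with IL-2 at 5 IU/mL (123 CPM).

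Ctla4 was highest with IL-2 at 50 IU/mL on day 3, and lower on day 10 than on day 5 in the 6 cultures with a day 10 library. On day 3 it was at 364.5 CPM with IL-2 at 5 IU/mL and 552 CPM at 50 IU/mL, at 245 and 147 CPM with IL-2v, and at 274 and 212 CPM with IL-15. The order of doses was thus the opposite in IL-2v and IL-15 to that in IL-2, and the library without cytokine (358 CPM) overlapped that of IL-2 at 5 IU/mL and lay above the IL-2v and IL-15 libraries. On day 5 Ctla4 was at 197.5 CPM without cytokine, 277 and 465 CPM with IL-2 at 5 and 50 IU/mL, 108 and 129 CPM with IL-2v, and 127 and 119 CPM with IL-15. Both IL-2 libraries of day 5 were above the library without cytokine, and the 4 others below it. On day 10 it lay between 13.6 CPM (IL-2v at 5 IU/mL) and 58.7 CPM (IL-2 at 50 IU/mL), with a median of 32.9 CPM over the 6 libraries. From day 5 to day 10 Ctla4 was at least 2-fold lower in 6 of 6 cultures, by log2 differences of -1.27 (IL-15 at 5 IU/mL) to -3.06 (IL-2 at 5 IU/mL). Of the 20 neighbouring pairs in the order of its 21 levels, 4 had overlapping intervals. Such overlap depends on the number of UMIs and was not counted over all genes.

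A Ctla4 UMI was found in 0.738% of thinned naive cells (95% Clopper-Pearson interval 0.509% to 1.03%), 46.8% on day 3 without cytokine, and 56.0% with IL-2 at 50 IU/mL (54.3% to 57.65%), against 22.8% with IL-2v at that dose. Without thinning these shares were 1.26%, 70.35%, 74.4% and 41.2%. Positive thinned cells carried 1.998 UMIs on average with IL-2 at 50 IU/mL on day 3 and 1.04 with IL-2v at 5 IU/mL on day 10, the ends of the range.

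Pdcd1, which encodes PD-1, the receptor of PD-L1 and PD-L2 and the other CD28 relative among the members, stayed low. It reached 20 CPM in 0 of 21 libraries. Its highest level was 9.66 CPM on day 3 without cytokine, followed by 8.69 CPM with IL-2 at 50 IU/mL on day 5 and 8.52 CPM with IL-15 at 5 IU/mL on day 3. On day 10 Pdcd1 was at 4.51 CPM with IL-2 at 50 IU/mL (3.75 to 5.38), which overlapped the naive library (2.81 to 4.61), and between 0.1225 and 1.31 CPM in the 5 other cultures. At most 1.58% of thinned cells of a library had a Pdcd1 UMI. Of the 20 neighbouring pairs in the order of its levels 19 had overlapping intervals, at these low counts. Levels further apart differed by more than counting error. Between days of a culture the counting interval of the ratio left out 1 in 12 of 13 pairs.

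Lag3 was lower at each later day in every culture, by different amounts. On day 3 it lay between 79.5 CPM (IL-15 at 50 IU/mL) and 135 CPM (IL-2 at 5 IU/mL) in the 6 cytokine libraries, with a median of 93.0 CPM. On day 5 it was at 38.8 CPM without cytokine, 44.8 and 72.1 CPM with IL-2 at 5 and 50 IU/mL, 22.4 and 82.8 CPM with IL-2v, and 17.8 and 31.3 CPM with IL-15. On day 10 it was at 12.2 and 30.1 CPM with IL-2, 0.9495 and 20.2 CPM with IL-2v, and 5.105 and 1.51 CPM with IL-15. The levels of IL-2v at 5 IU/mL and IL-15 at 50 IU/mL on day 10 were thus back at that of naive cells (1.08 CPM, interval 0.6615 to 1.67), with overlapping intervals. From day 5 to day 10 the log2 difference of Lag3 lay between -1.23 (IL-2 at 50 IU/mL) and -3.69 (IL-15 at 50 IU/mL), and it was at least 2-fold lower in all 6 cultures. One of these, IL-15 at 5 IU/mL, was under 20 CPM on both days.

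Tigit encodes a receptor of CD155 (the product of Pvr) that competes with the activating receptor CD226. It had 3 to 55 UMIs in a library, at most 2.74 CPM (IL-2 at 5 IU/mL on day 5), and a UMI in at most 0.583% of thinned cells. All 20 neighbouring pairs in the order of its levels overlapped, at these low counts. Between days of a culture the counting interval of the ratio left out 1 in 6 of 13 pairs. Between the no-cytokine library of day 3 and naive cells the ratio of Tigit was 11.3 with an interval of 3.62 to 57.3, which rests on 3 UMIs in naive cells.

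Havcr2, Entpd1 and Cd244a were low through day 3 and reached their highest levels on day 10 with IL-2 at 50 IU/mL. Havcr2 encodes TIM-3, a receptor of galectin-9 and other ligands. It was at 0.217 CPM in naive cells and between 1.575 and 3.26 CPM in the cytokine libraries of day 3. On day 5 it stood at 9.92 CPM with IL-2 at 50 IU/mL, 4.79 CPM with IL-2v at 50 IU/mL and between 0.129 and 1.004 CPM in the other cytokine libraries. On day 10 Havcr2 was at 98.3 CPM with IL-2 at 50 IU/mL (94.7 to 102), 15.7 CPM with IL-2v at 50 IU/mL (14.2 to 17.2), and 2.15 CPM with IL-2 at 5 IU/mL. The 3 remaining day 10 libraries held 3 (IL-15 at 5 IU/mL), 0 (IL-2v at 5 IU/mL) and 0 (IL-15 at 50 IU/mL) Havcr2 UMIs. The level with IL-2 at 5 IU/mL lay within the range of the day 3 cytokine libraries. Against a floor of 3 UMIs in the library at 0, its level with IL-2 was at least 1044.5-fold higher than with IL-15 at 50 IU/mL.

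Entpd1 encodes CD39, an ectoenzyme that breaks down extracellular ATP and ADP on the way to adenosine. It was at 1.08 CPM in naive cells and at 9.43 to 13.5 CPM in the cytokine libraries of day 3. On day 5 it was at 4.79 CPM without cytokine, 11.2 and 31.3 CPM with IL-2 at 5 and 50 IU/mL, 17.5 and 29.0 CPM with IL-2v, and 6.29 and 17.5 CPM with IL-15. On day 10 these pairs were 20.9 and 69.7 CPM, 11.6 and 40.3 CPM, and 4.12 and 8.03 CPM. In all 9 pairs of equal cytokine and day the 50 IU/mL library was the higher one, and the counting interval of the ratio left out 1 in 7 of them. Over the 8 receptors, the pairs whose interval left out 1 numbered from 3 (Tigit) to 9 (Ctla4) of these 9. This number depends on the UMIs counted as well as on dose, and Tigit had at most 55 UMIs in a library. It was not counted over all genes.

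Cd244a encodes 2B4, a SLAM-family receptor of CD48 that can inhibit or activate. It was between 0.9065 and 2.88 CPM in the cytokine libraries of day 3, and at 1.245 CPM in naive cells. On day 5 it was at 6.99 CPM with IL-2 at 50 IU/mL and 14.03 CPM with IL-2v at 50 IU/mL, and at most 2.06 CPM in the other cytokine libraries. On day 10 it reached 39.8 CPM with IL-2 at 50 IU/mL, 29.6 CPM with IL-2v at 50 IU/mL and 11.7 CPM with IL-2 at 5 IU/mL. IL-2v at 5 IU/mL was at 2.08 CPM and the IL-15 libraries at 0.686 and 1.07 CPM. On day 5 at 50 IU/mL Cd244a was higher with IL-2v than with IL-2 (interval of the ratio 1.55 to 2.63), with both libraries under 20 CPM.

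**Figure D2:**
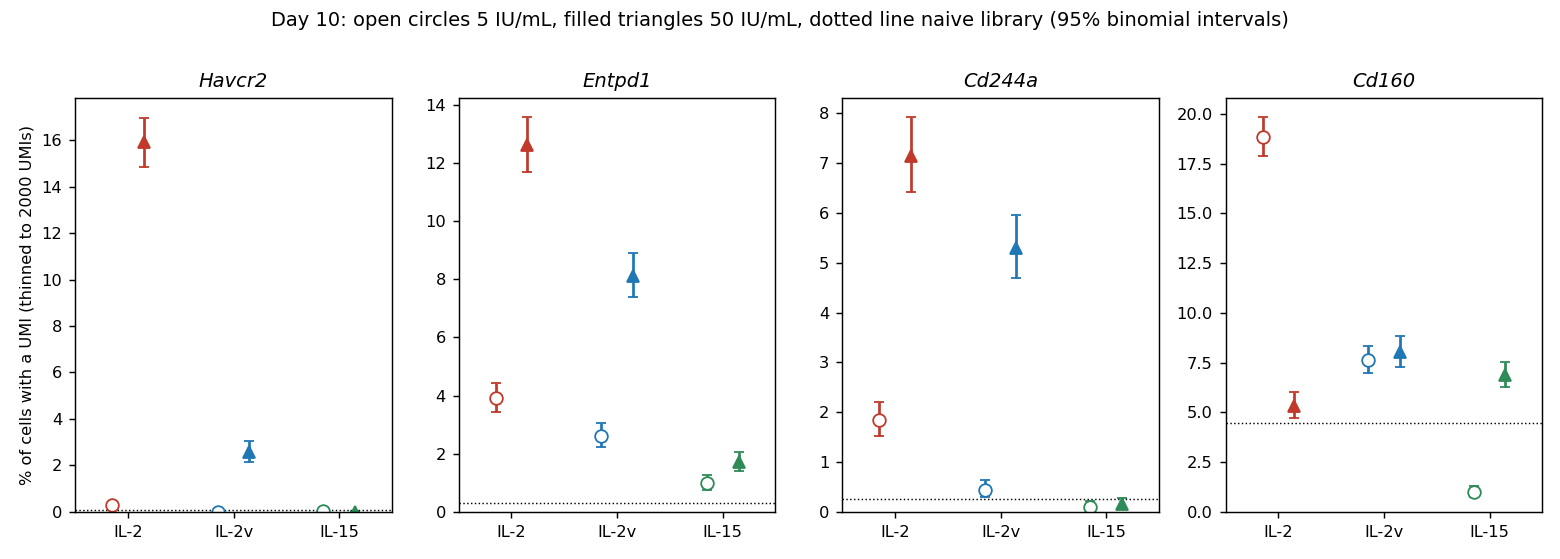
Share of thinned cells with a UMI of Havcr2, Entpd1, Cd244a or Cd160 on day 10 (y axis, percent, a separate scale per gene), by cytokine (x axis). Open circles are 5 IU/mL, filled triangles 50 IU/mL, bars exact 95% binomial intervals, and the dotted line is the naive library. The first 3 genes were highest with IL-2 at 50 IU/mL (15.9%, 12.6% and 7.14%), Cd160 with IL-2 at 5 IU/mL (18.9%).

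Counted per cell on day 10, a Havcr2 UMI was found in 15.9% of thinned cells with IL-2 at 50 IU/mL (14.9% to 16.97%) and 2.57% with IL-2v at that dose (2.14% to 3.05%). It was found in 0 of 6438 cells with IL-15 at 50 IU/mL, which at 3 counts of the total allows a share of up to 0.0466%, and in 0 of 6123 cells with IL-2v at 5 IU/mL, which allows up to 0.0490%. These limits are for cells with a UMI at this depth, not for cells that express the gene. Without thinning the first 2 shares were 32.9% and 6.54%. For Entpd1 the shares at 50 IU/mL were 12.6% in the IL-2, 8.12% in the IL-2v and 1.72% in the IL-15 library. For Cd244a, in that order, they were 7.14%, 5.295% and 0.155%. A UMI of at least 1 of these 3 genes, a set formed after their levels were seen, was found in 30.8% of cells with IL-2 and 14.8% with IL-2v at 50 IU/mL, and in 0.649% of naive cells. The share with a UMI of Ctla4, Lag3, Pdcd1 or Tigit, formed in the same way, was 1.59% in naive cells, 65.1% with IL-2 at 50 IU/mL on day 3 and 17.15% in that culture on day 10.

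Cd160 followed neither course. It encodes a receptor of HVEM (the product of Tnfrsf14) and of MHC class I that natural killer cells and some CD8 T cells carry. It was at 25.9 CPM in naive cells, and on day 3 at 36.4 CPM with IL-2 at 5 IU/mL, 10.8 CPM with IL-2 at 50 IU/mL, and 34.2 to 42.3 CPM in the 4 other cytokine libraries. On day 5 it was at 55.0 CPM without cytokine, 73.9 and 23.9 CPM with IL-2 at 5 and 50 IU/mL, and 34.4 to 42.0 CPM in the IL-2v and IL-15 libraries. On day 10 the 2 IL-2 doses were at 123 and 28.75 CPM, IL-2v at 43.2 and 46.5 CPM, and IL-15 at 5.92 and 39.5 CPM. The highest and the lowest level of the 21 libraries were both on day 10 at 5 IU/mL, with IL-2 and with IL-15, a ratio of 20.8. The share of thinned cells with a UMI was 18.9% in the first and 1.02% in the second, beside 4.45% of naive cells.

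Genes typical of natural killer cells were highest on day 10 in 3 of the 6 libraries. The summed level of 4 such genes was 135 CPM with IL-2 at 50 IU/mL, 82.7 CPM with IL-2v at 50 IU/mL and 40.6 CPM with IL-2 at 5 IU/mL, and between 0.343 and 5.64 CPM in the 3 other libraries of that day. Of the 4, Fcer1g (113 CPM with IL-2 at 50 IU/mL) and Klrb1c (36.7 CPM with IL-2v at 50 IU/mL) carried these sums. Ncr1, which defines natural killer cells, was at 0 in 20 of 21 libraries and at 0.0336 CPM in the other, and Tyrobp was at most 1.80 CPM. Of the 6 T cell markers, Cd3d (1162 against 887.5 CPM) and Cd3g (945 against 892 CPM) were higher with IL-2 at 50 IU/mL on day 10 than in naive cells. The other 4 were lower, with Cd3e at 332 against 626 CPM, Trac at 180.1 against 480 CPM, Cd8a at 134 against 485 CPM and Cd8b1 at 174 against 1144 CPM. The 6 summed to 2927 CPM there and to 2238 CPM (IL-2 at 50 IU/mL on day 3) to 5519 CPM (day 5 without cytokine) over the 21 libraries. In the same 3 libraries, in that order, Entpd1 was at 69.7, 40.3 and 20.9 CPM and Cd244a at 39.8, 29.6 and 11.7 CPM, and Havcr2 at 98.3, 15.7 and 2.15 CPM. Cd160 did not have the order of the sums, with 28.75 CPM in the library of the highest sum and 39.5 CPM with IL-15 at 50 IU/mL. The part of these genes in the receptor levels was not tested.

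Cytokine libraries were set against the no-cytokine library of their day, on days 3 and 5. These comparisons share 1 control library per day, so they are not independent. With 5 IU/mL on day 3, 0 of 3 receptors that reached 20 CPM were called for any of IL-2, IL-2v and IL-15 (beside 0.248%, 0.282% and 0.427% of all genes), and 0 of 3 with IL-15 at 50 IU/mL (beside 1.08%). At 50 IU/mL on day 3, Cd160 was lower with IL-2 (10.8 against 35.6 CPM, log2 -1.63; 1 of 3 tested, beside 9.19% of all genes) and Ctla4 lower with IL-2v (147 against 358 CPM, log2 -1.28; 1 of 3, beside 9.57%). On day 5, IL-2 at 50 IU/mL had Ctla4 (log2 1.23) and Entpd1 (2.48) higher and Cd160 (-1.17) lower, 3 of 4 tested beside 24% of all genes. IL-2v at 50 IU/mL had Lag3 (1.07) and Entpd1 (2.37) higher, 2 of 4 beside 26.7%. IL-15 at 5 IU/mL had Lag3 (-1.09) lower, 1 of 3 beside 1.74%. In the 3 other day 5 comparisons 0 of 3 tested were called, beside 2.5% (IL-2 at 5 IU/mL), 12.4% (IL-2v at 5 IU/mL) and 7.72% (IL-15 at 50 IU/mL). Over the 12 comparisons 4 differences were higher and 4 lower. The split depended on scaling: it was 3 and 5 with TMM factors, 6 and 4 with totals that leave out ribosomal protein and mitochondrial genes, and 5 and 2 with the mean of single-cell CPM.

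IL-2v was set against IL-2 in 6 pairs of equal day and dose. Ctla4 was lower with IL-2v in 6 of 6 pairs, with a median log2 difference of -1.27 and a mean over the 6 libraries of 112.5 CPM against 292 CPM. It was the 1 receptor of 4 tested that was lower in all pairs with a median of at least 2-fold, a rule that 0.274% of 5839 genes met, and 0 were higher (1.04% of genes). Without the 2 day 5 pairs the median was -0.99, which no longer met the rule. Pdcd1 was also lower in 6 of 6 pairs, with a median of -1.05, at 0.122 to 5.55 CPM with IL-2v and 1.31 to 8.69 CPM with IL-2, under the 20 CPM limit throughout. The counting interval of the Pdcd1 ratio held 1 in 1 of these pairs. The direction of Cd160 depended on dose. At 5 IU/mL it was lower with IL-2v on days 3, 5 and 10 (log2 -0.05, -1.07 and -1.49) and at 50 IU/mL higher (1.57, 0.51 and 0.67). The counting interval of the day 3 ratio at 5 IU/mL held 1. On day 10 at 50 IU/mL Havcr2 was called lower with IL-2v, with a log2 difference of -2.57. Entpd1 (-0.77), Lag3 (-0.55) and Cd244a (-0.42) did not reach 2-fold in that pair.

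Counted pair by pair, 0 of 3 receptors tested were called between IL-2v and IL-2 on day 3 at 5 IU/mL (0.0866% of all genes) and 2 of 3 at 50 IU/mL, Ctla4 lower and Cd160 higher (3.32% of all genes). On day 5 Ctla4 and Cd160 were lower at 5 IU/mL (2 of 3, beside 8.32%) and Ctla4 at 50 IU/mL (1 of 4, beside 7.8%). On day 10 Ctla4 and Cd160 were lower at 5 IU/mL (2 of 3, beside 14.5%) and Havcr2 at 50 IU/mL (1 of 6, beside 4.94%).

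**Figure D3:**
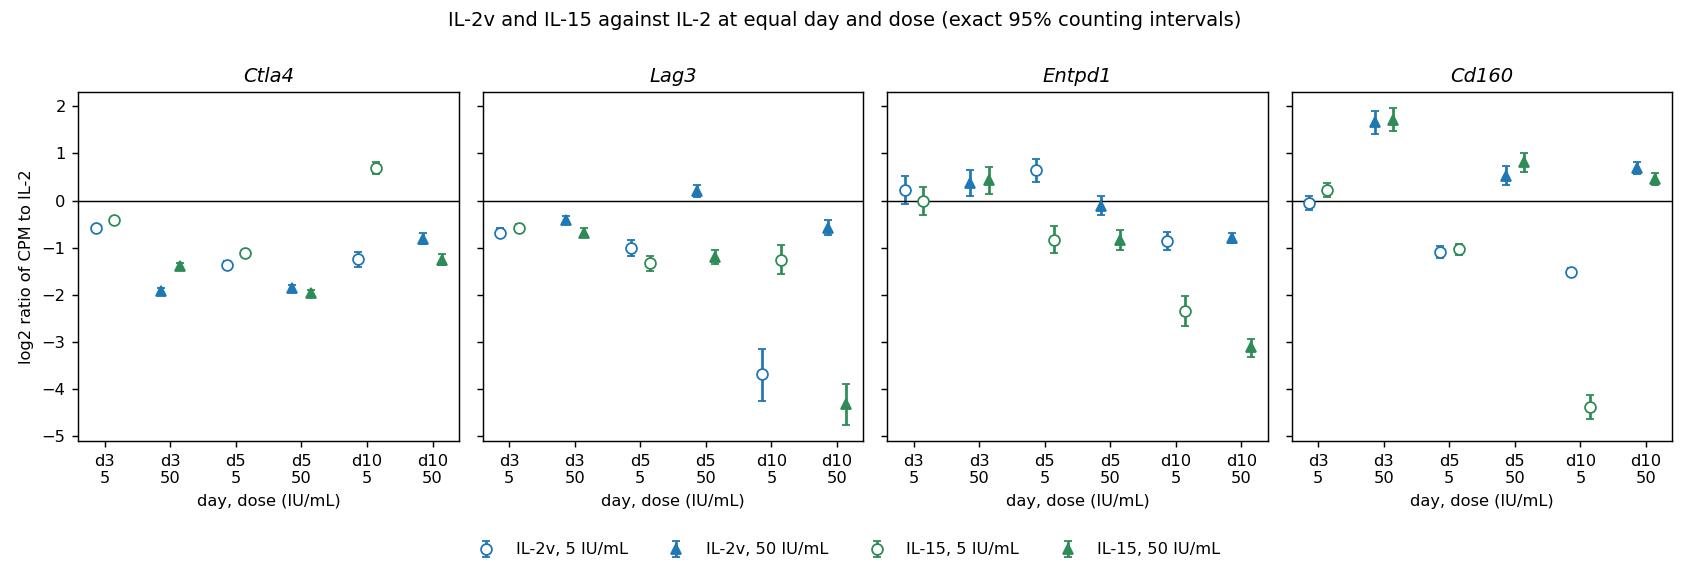
Log2 ratio of the CPM of Ctla4, Lag3, Entpd1 and Cd160 with IL-2v (blue) or IL-15 (green) to that with IL-2 (y axis), in 6 pairs of equal day and dose (x axis: day, and dose in IU/mL). Open circles are 5 and filled triangles 50 IU/mL, and bars are exact 95% counting intervals. Ctla4 with IL-2v lay below 0 in 6 of 6 pairs and Lag3 with IL-15 in 6 of 6, and Cd160 lay above 0 at 50 IU/mL for both.

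Against IL-2, also in 6 pairs, Lag3 was lower with IL-15 in 6 of 6, with a median log2 difference of -1.14 and means of 37.5 CPM with IL-15 and 70.25 CPM with IL-2. It was 1 of 4 receptors tested that met the rule of all pairs and 2-fold, beside 1.7% of 5718 genes, and 0 met it upwards (0.49%). Its median was -0.93 without day 10, -0.89 without day 5 and -0.80 with a pseudocount of 10 CPM, each short of the rule. Ctla4 was lower in 5 of 6 pairs and higher with IL-15 at 5 IU/mL on day 10 (52.2 against 32.3 CPM). On day 3, 0 of 3 tested were called at 5 IU/mL (0.452% of all genes) and 2 of 3 at 50 IU/mL, Ctla4 lower and Cd160 higher (beside 5.86%). On day 5 Ctla4, Lag3 and Cd160 were lower at 5 IU/mL (3 of 3, beside 1.37%), and Ctla4 and Lag3 at 50 IU/mL (2 of 4, beside 12.3%). On day 10 Entpd1 and Cd160 were lower at 5 IU/mL (2 of 3, beside 11.6%). At 50 IU/mL 5 of 6 tested were lower: Havcr2, Cd244a (log2 -4.30), Lag3 (-3.63), Entpd1 (-2.97) and Ctla4 (-1.22). Of all 5555 genes tested there 21.5% were called, 644 lower and 548 higher. Havcr2, Cd244a, Lag3 and Entpd1 reached 20 CPM only in the IL-2 library, so they could only be called lower with IL-15. The sixth receptor tested, Cd160, was at 39.5 CPM with IL-15 and 28.75 CPM with IL-2.

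Between IL-2v and IL-15 no receptor met the rule over all 6 pairs (0 of 4 tested, beside 2.48% of 5810 genes higher and 0.585% lower with IL-2v). Cd244a was higher with IL-2v in 6 of 6 pairs with a median of 0.70, which does not reach 2-fold, and Entpd1 in 5 of 6. On day 3, 0 of 3 were called at either dose (0.453% and 2.92% of all genes). On day 5 it was 0 of 3 at 5 IU/mL (6.91%) and Lag3 higher with IL-2v at 50 IU/mL (82.8 against 31.3 CPM; 1 of 4, beside 10.4%). On day 10 at 5 IU/mL Cd160 was higher (43.2 against 5.92 CPM) and Ctla4 lower (13.6 against 52.2 CPM) with IL-2v, 2 of 2 tested beside 17.1%. At 50 IU/mL Lag3, Entpd1 and Cd244a were higher (log2 3.08, 2.19 and 3.89), 3 of 5 beside 14.2%. All 3 reached 20 CPM only in the IL-2v library, so they could only be called higher with IL-2v. Havcr2 stayed under 20 CPM there, at 15.7 CPM with IL-2v and 0 UMIs with IL-15, at least 167-fold higher over a floor of 3 UMIs.

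Dose split the receptors within IL-2. Cd160 was lower at 50 than at 5 IU/mL on days 3, 5 and 10, by log2 -1.66, -1.59 and -2.06, and Entpd1 was higher by 0.07, 1.40 and 1.69. These 2 of 5 tested met the rule of all 3 days with a median of at least 2-fold, beside 2.7% of 5879 genes lower and 4.29% higher. On day 3 the Entpd1 intervals overlapped (8.185 to 11.07 CPM at 5 and 8.58 to 11.7 CPM at 50 IU/mL), so its sign that day lies within counting error. The Entpd1 median was 0.73 without day 10, 0.88 without day 5 (which leaves out the shallowest library) and 0.96 with a pseudocount of 10 CPM, each short of the rule. Ctla4 was higher at 50 IU/mL on all 3 days by less than 2-fold (0.60, 0.74 and 0.84). The pairs gave 1 of 3 called on day 3 (5.46% of all genes), 2 of 4 on day 5 (17.5%) and 5 of 6 on day 10 (21.1%). The day 10 calls were Havcr2 (4.98), Entpd1, Cd244a (1.69) and Lag3 (1.24) higher and Cd160 lower. Of these, Havcr2, Cd244a and Lag3 reached 20 CPM only at 50 IU/mL, so they could only be called higher.

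Within IL-2v, Lag3 was higher at 50 IU/mL on days 3, 5 and 10 (log2 0.19, 1.84 and 3.44). It was the 1 receptor of 4 tested to meet the rule, beside 2.38% of 5913 genes higher, with 0 lower (0.626%). The Lag3 median of 1.84 became 1.015 without day 10, and 1.835 when cells with a Mki67 or Top2a UMI were left out. The rule of 1 sign on all days was then no longer met, since Lag3 was at 92.6 CPM at 50 and 94.5 CPM at 5 IU/mL on day 3. Cd244a was higher at 50 IU/mL on all 3 days as well (0.56, 2.30 and 3.31), and reached 20 CPM in 1 of these libraries. Havcr2 was at 2.12 and 3.26 CPM on day 3, 0.163 and 4.79 CPM on day 5, and 0 and 15.7 CPM on day 10, at least 171-fold higher over a floor of 3 UMIs. Cd160 differed by log2 -0.04, -0.01 and 0.10, and the sign of the day 5 value depended on scaling. The counts were 0 of 3 on day 3 (2.89% of all genes), 1 of 4 on day 5 (5.34%) and 4 of 5 on day 10 (11.2%), the last being Lag3, Ctla4 (1.25), Entpd1 (1.72) and Cd244a. These 4 reached 20 CPM only in the 50 IU/mL library of day 10, so they could only be called higher. Within IL-15, 0 of 3 receptors met the rule (0.869% of genes higher and 0.181% lower), 0 of 3 were called on day 3 (0.0176%) and 0 of 3 on day 5 (2.37%). On day 10 Cd160 was higher (39.5 against 5.92 CPM) and Ctla4 lower (24.6 against 52.2 CPM) at 50 IU/mL, 2 of 2 tested beside 5.7%.

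Receptors differed in opposite directions with time in the culture with IL-2 at 50 IU/mL. From day 5 to day 10 Havcr2 (log2 3.19), Cd244a (2.35) and Entpd1 (1.13) were higher and Ctla4 (-2.965) and Lag3 (-1.23) lower, 5 of 6 tested beside 25.4% of all genes. Havcr2 and Cd244a reached 20 CPM only on day 10, so they could only be called higher. With IL-2v at 50 IU/mL Cd244a (1.02) was higher and Ctla4 (-1.91) and Lag3 (-1.98) lower, 3 of 5 beside 13.2%. There too Cd244a reached 20 CPM only on day 10. In the 4 other cultures no receptor that reached 20 CPM was called higher. Under that limit, Cd244a with IL-2 at 5 IU/mL was at 1.05 CPM (21 UMIs) on day 5 and 11.7 CPM (347 UMIs) on day 10. In that culture Entpd1 (11.2 and 20.9 CPM) and Cd160 (73.9 and 123 CPM) were also higher on day 10, by less than 2-fold. Ctla4 and Lag3 were lower in IL-2 at 5 IU/mL (2 of 4, beside 6.63%), IL-2v at 5 IU/mL (2 of 3, beside 6.19%) and IL-15 at 50 IU/mL (2 of 3, beside 5.27%). In IL-15 at 5 IU/mL Ctla4 and Cd160 (-2.42) were lower, 2 of 2 beside 4.78%. From day 3 to day 5 Lag3 was the 1 of 3 called without cytokine, lower by log2 -1.11 (beside 13.1% of all genes), and with IL-15 at 50 IU/mL, by -1.32 (beside 4.27%). At 5 IU/mL 2 of 3 were called in each culture: Lag3 (-1.57) lower and Cd160 (1.002) higher with IL-2 (beside 13.9%), and Lag3 and Ctla4 lower with IL-2v (-1.865 and -1.175, beside 3.41%) and with IL-15 (-2.28 and -1.10, beside 9.39%). At 50 IU/mL Entpd1 (1.545) and Cd160 (1.07) were higher with IL-2, 2 of 4 beside 9.09%, and Entpd1 (1.10) with IL-2v, 1 of 4 beside 2.57%.

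The number of the 8 receptors detected per thinned cell summed these courses. Its mean was 0.0678 in naive cells and 0.728 on day 3 without cytokine. With IL-2 at 50 IU/mL it was 0.8405 on day 3, the highest of all libraries, 0.806 on day 5 and 0.589 on day 10. This order turned without thinning, where the same 3 libraries were at 1.256, 1.07 and 1.31, and that of day 10 was the highest of all, next to 1.309 with IL-2 at 5 IU/mL on day 3. On day 10 the other libraries were at 0.345 (IL-2v at 50 IU/mL), 0.342 (IL-2 at 5 IU/mL), 0.143 and 0.130 (IL-15 at 50 and 5 IU/mL) and 0.137 (IL-2v at 5 IU/mL). Cells with 3 or more receptors were rare, at 1.77% with IL-2 at 50 IU/mL on day 10 (1.41% to 2.19%, 83 cells) and 1.645% in that culture on day 5 (1.21% to 2.18%). They were 0 of 4471 naive cells, which at 3 counts of the total allows a share of up to 0.0671% at this depth. The number is set by detection at 2000 UMIs as well as by the cells: without thinning the mean was 0.114 in naive cells. Ctla4 carried much of the mean, which over all 21 libraries was 0.475 with it and 0.225 without it.

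**Figure D4:**
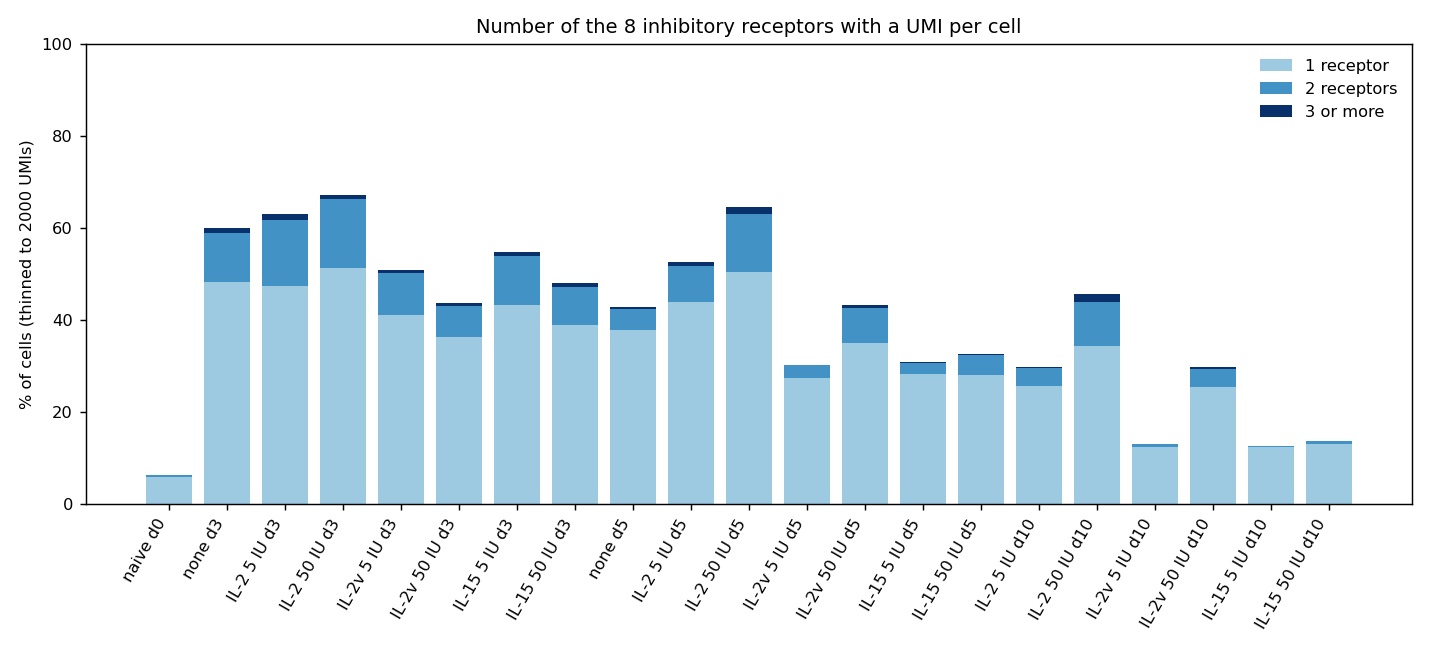
Share of thinned cells (y axis, percent) with a UMI of 1, 2, or 3 or more of the 8 receptors, stacked, in each of the 21 libraries (x axis). The naive library had 6.33% of cells with any receptor, and IL-2 at 50 IU/mL on day 3 had 67.2%.

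Which receptors filled such cells differed between libraries, as did the share of each receptor among all thinned cells. Havcr2 was in 0.236% of all thinned cells on day 3 without cytokine and in 15.9% with IL-2 at 50 IU/mL on day 10. The make-up that these shares alone would give was not computed. Among the 44 cells with 3 or more receptors on day 3 without cytokine, 95.45% had Ctla4, 84.1% Lag3 and 4.545% Havcr2. Among the 83 such cells with IL-2 at 50 IU/mL on day 10, 71.1% had Entpd1, 65.1% Havcr2, 51.8% Ctla4, 42.2% Lag3 and 42.2% Cd244a. These libraries differ in cytokine as well as day. In the culture with IL-2 at 50 IU/mL itself, the 29 such cells of day 3 had Ctla4 in 93.1%, Lag3 in 89.7% and Havcr2 in 0, and the 47 of day 5 had them in 93.6%, 57.45% and 21.3%. Pairs of receptors were set against the product of their shares in a library where that product gave at least 20 cells. For Lag3 and Ctla4 the interval of the ratio held 1 in 15 of 15 libraries, with a median ratio of 1.01. Ctla4 and Cd160 were found together less often than the product in 4 of 18 libraries, and more often in 0, with a median ratio of 0.875. Havcr2 and Entpd1 could be compared in 1 library, IL-2 at 50 IU/mL on day 10, with 122 cells against 94.1 (ratio 1.296, interval 1.08 to 1.54). Havcr2 and Cd160 had 25 cells there against 39.7 (0.629, 0.4075 to 0.9275). Of the 81 comparisons of 16 receptor pairs, the interval left out a ratio of 1 in 11. That count depended on the depth and the cells used: it was 1 with thinning to 1000 UMIs, 56 without thinning and 4 without cells that had a Mki67 or Top2a UMI. These weak departures in sparse counts are given as a description.

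Cells within a library were split by a UMI of Mki67 or Top2a, of Tcf7, or of Gzmb after thinning. A thinned cell without a UMI can still express the gene, so these splits do not define cell states. Ctla4 had a UMI in a smaller share of cells with Mki67 or Top2a (genes of dividing cells) than of cells without, by intervals that did not overlap, in 8 of 21 libraries and in a larger share in 0. With IL-15 at 5 IU/mL on day 3 the shares were 33.9% and 44.7%. Thinning to 1 depth made the UMIs drawn per cell equal, but not the RNA content of the cells. The cause of the difference was not tested. Cd160 was seen less often in cells with Tcf7, which encodes the TCF-1 factor of naive and stem-like cells, in 5 of 20 libraries, and Ctla4 more often in 4 of 20. Pdcd1, Havcr2 and Cd244a were each seen less often in cells with Tcf7 in 3 of 20. Cd244a and Cd160 were each seen more often in cells with Gzmb (granzyme B) in 3 of 19 libraries. With IL-2 at 5 IU/mL on day 10 a Cd160 UMI was in 21.6% of cells with Gzmb and 15.5% without. In the other splits of these libraries most intervals overlapped. The splits were not counted over all genes, so these counts are not known to be particular to the receptors.

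Genes that act with the receptors were counted from 5 lists, to be read beside all genes: on activation 684 of 6171 were called higher and 513 lower, between the IL-2 doses on day 10 383 of 5832 higher and 847 lower, and between the IL-2v doses on day 10 282 of 5618 higher and 345 lower. Of 14 ligands and partners 8 reached 20 CPM in at least 1 library. Lgals3, which encodes galectin-3, ranged from 3.35 CPM (IL-15 at 5 IU/mL on day 10) through 11.9 CPM in naive cells to 3156 CPM with IL-2 at 50 IU/mL on day 10. Pdcd1lg2 (PD-L2) was highest in the same library (25.1 CPM). Cd48, the ligand of 2B4, was highest with IL-2 at 5 IU/mL on day 10 (296 CPM) and at 83.1 CPM at 50 IU/mL. Nt5e (CD73, which makes adenosine from AMP) was at 38.4 CPM with IL-15 at 50 IU/mL and 3.63 CPM with IL-2 at 50 IU/mL on day 10. On activation 1 of 4 tested ligands was called higher and 0 lower (all genes, 11.1% higher), and between IL-2 doses on day 10 there were 2 of 6 higher and 2 lower (all genes, 21.1% called either way).

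Of 17 other inhibitory receptors 16 were listed and 10 reached 20 CPM. Of these 10, 3 had their lowest level with IL-2 at 50 IU/mL on day 10, and the share of all genes lowest there was not counted. Btla, which also binds HVEM, was at 0.183 CPM (34.95 CPM at its highest, with IL-15 at 50 IU/mL on day 3), Cd5 at 9.02 CPM (175 CPM in naive cells), and Adora2a, an adenosine receptor, at 1.80 CPM (23.95 CPM at its highest). Vsir (VISTA) was highest there, at 180 CPM. Between the IL-2 doses on day 10, 0 of 7 tested were called higher and 2 lower (all genes, 21.1% either way), with a list median of -0.78 beside -0.30 over all genes. On activation 1 of 8 was called higher and 2 lower (all genes, 11.1% higher).

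Of 9 costimulatory receptors 8 reached 20 CPM, and 4 of 8 tested were called higher on activation and 0 lower (all genes, 11.1% higher). Tnfrsf9 (4-1BB) was at 6.88 CPM in naive cells and 1112 CPM with IL-2 at 50 IU/mL on day 10, and Tnfrsf4 (OX40) was highest with IL-2 at 50 IU/mL on day 3 (499 CPM). Cd27 and Cd226 were lowest with IL-2 at 50 IU/mL on day 10, at 19.8 and 10.96 CPM. All 16 signalling and trafficking partners reached 20 CPM, and 1 was called higher and 1 lower on activation, beside the same 11.1% of all genes higher. Ptpn6 (SHP-1) was lowest with IL-2 at 50 IU/mL on day 10 (29.7 CPM) beside a median of 123 CPM. Trat1, which brings CTLA-4 to the surface, was at 42.8 CPM in naive cells and 2.05 CPM in that library. Sh2d1a (SAP), an adaptor of 2B4, ranged from 48.2 to 176 CPM, and Sh2d2a from 69.0 to 218 CPM.

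Of 22 transcription factors 17 reached 20 CPM, with 6 of 17 tested called higher and 3 lower on activation (all genes, 11.1% higher). With IL-2 at 50 IU/mL on day 10, Tcf7 was at 2.38 CPM and Tox, a factor of exhausted cells, at 0.733 CPM, the lowest level of each. Naive cells held 471 and 93.6 CPM. Maf was highest in that library at 91.55 CPM, and Bhlhe40 on day 5 of that culture at 318 CPM. Between the IL-2 doses on day 10, 3 of 13 were called higher and 3 lower (all genes, 21.1% either way), and between the IL-2v doses 3 of 12 higher and 1 lower (all genes, 11.2%).

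The genes whose log2(CPM + 1) followed each receptor most closely over the 21 libraries were ranked among 5495 genes averaging 20 CPM or more. The libraries share conditions, so Pearson's r is a description. Lag3 was followed by Ptms (r = 0.96), Hif1a (0.96) and Klc3 (0.95), and Ptms lies 1975 bases from Lag3 on the same strand. Ctla4 was followed by Gfi1 (0.93), Lag3 (0.91) and Dgcr6 (0.89). Havcr2 was followed by Gzmf (0.91), Serpinb9 (0.90) and Prdx5 (0.88), and Cd244a by Spp1 (0.95), Capn2 (0.93) and Gzmc (0.92). For Entpd1 they were Chsy1 (0.94), Ppm1j (0.94) and Ifitm2 (0.91), of which Ifitm2 belongs to a family of similar genes that can share reads. Cd160 had no follower above 0.75, its first being Pycard (0.75), Rgs3 (0.73) and Fuca2 (0.72). Pdcd1 (Myb 0.88, Ckb 0.86, Bcl3 0.86) and Tigit (Unc93b1 0.88, Ptms 0.87, Hif1a 0.84) were under 20 CPM in all 21 libraries.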

How the data were processed

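UMI counts per gene and cell were deposited as 1 table per library by the authors. Per the submitters' processing notes, Cell Ranger, Seurat 4.0.1 and Seurat 3.0.2 and build mm10 were used, with no role given; filters made before deposit are not given in the sources used here. All 21 libraries held whole counts for the same 17516 genes. Cells under 1000 UMIs or 500 genes, or over 10% mitochondrial UMIs, were removed, 2 in all, which left 106456. No doublet caller was run; cells above 2 times the median UMIs were left out as an alternative.

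UMIs were summed per library and divided by the total (CPM). Differences are of log2(CPM + 1). A difference of at least 2-fold was called where either library reached 20 CPM, over all genes; over several pairs, 1 sign in all and a median of at least 2-fold were asked, with the mean over pairs at 20 CPM. With 1 library per condition no test was run. Intervals (95%) are exact Poisson for CPM, exact binomial for ratios and Clopper-Pearson for shares, and floors are 3 counts; they cover counting error only. At these depths 3 counts were 0.0919 to 0.283 CPM. Shares used cells thinned to 2000 UMIs with a fixed seed, which left 2857 to 6921 cells per library. Co-detection needed a product of shares of at least 20 cells, and splits at least 50 cells on each side.

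All 8 members were named; from each of 5 lists of related genes, up to 4 with the largest log2 range among those reaching 20 CPM; and for likeness the 3 highest Pearson r among genes averaging at least 20 CPM. Marker lists covered T cells, CD4 T cells, B cells, myeloid, natural killer and erythroid cells. The members and lists were chosen with earlier results of these data known. Alternatives changed the cell filter, possible doublets, scaling, averaging, pseudocount, filter on low values, cycling cells, thinning and members counted; leaving out a day or the shallowest library was chosen after seeing the data. The calling step was run on simulated counts with Poisson error only and 1 library total. The changes put in were larger than 2-fold, in genes above 20 CPM. This checks the code and does not show how calls hold at low counts or between cultures. Python 3.11.15, numpy 2.4.6, scipy 1.17.1, pandas 2.3.3, matplotlib 3.10.9, R 4.3.3 and edgeR 4.0.16 (TMM factors only) were used.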

Additional observations from a re-analysis of the deposited data

Results flagged for a closer look

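Ctla4 went in opposite directions with dose in IL-2 and in IL-15. Between 50 and 5 IU/mL its log2 difference was above 0 on days 3, 5 and 10 with IL-2, with a median of 0.74, and below 0 on all 3 days with IL-15, with a median of -0.37. The day 5 difference with IL-15 was -0.10. The difference between the cytokines was not tested.

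Cd160 went in opposite directions between IL-2v and IL-2 at the 2 doses. Its log2 difference was below 0 on days 3, 5 and 10 at 5 IU/mL, with a median of -1.07, and above 0 on all 3 days at 50 IU/mL, with a median of 0.67. The day 3 value at 5 IU/mL was -0.05, and the counting interval of that ratio held 1. This difference between the doses was not tested either. In IL-2 Cd160 was lower at 50 than at 5 IU/mL on each day, and the same IL-2 libraries enter both patterns of the gene.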

How the results depend on the processing

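Of the 80 receptor differences called over 53 pairs of libraries, 0 changed sign under 6 alternatives of cell filter, scaling, averaging and cycling cells. Of the 80, 74 to 77 stayed at least 2-fold. The 2 scaling alternatives could not have turned a sign: they shifted the median of all genes by at most log2 0.38, and a call needs 2-fold. Averaging over single cells moved that median by log2 -0.04 to 0.05. For these settings the 0 is therefore no test of the signs. A pseudocount of 10 CPM, which cannot turn a sign, left 61. Dropping the filter on low values leaves these differences as they are, and using all barcodes adds back only 2 cells. Counts of called receptors depended most on the 20 CPM limit. Without it they went from 2 to 6 for activation, 8 to 19 for cytokine against none, 8 to 15 for IL-2v against IL-2, 14 to 22 for IL-15 against IL-2, 6 to 14 for IL-2v against IL-15, 15 to 23 for dose and 27 to 44 for day, since genes of few UMIs then count. The share of all genes called without the limit was not counted, so this rise says nothing particular of the receptors. A pseudocount of 10 CPM left 5 calls for cytokine against none. Over several pairs, a pseudocount of 10 CPM ended the calls of Lag3 between IL-15 and IL-2 (-0.80) and of Entpd1 with IL-2 dose (0.96). Leaving out day 5 ended these (-0.89 and 0.88) and that of Ctla4 between IL-2v and IL-2 (-0.99), and leaving out day 10 those of Lag3 (-0.93) and Entpd1 (0.73). Lag3 with IL-2v dose lost its call over all 3 days when cells with a Mki67 or Top2a UMI were left out (median 1.835, with day 3 at 92.6 against 94.5 CPM). The mean number of receptors per cell, averaged over the 21 libraries, was 0.475 and became 0.268 with thinning to 1000 UMIs, 0.840 without thinning, 0.480 without cells above 2 times the median UMIs and 0.496 without cycling cells, those with a Mki67 or Top2a UMI. Leaving out 1 receptor gave 0.4685 (Pdcd1), 0.463 (Havcr2), 0.382 (Lag3), 0.225 (Ctla4), 0.443 (Entpd1), 0.408 (Cd160) and 0.464 (Cd244a). The share of cells with at least 1 receptor was 39.75% and became 24.3%, 58.8%, 40.1% and 41.1% under the same 4 settings. The 11 co-detection cases became 1 at 1000 UMIs, 56 without thinning and 4 without cycling cells. TMM scaling shifted the median of all genes by log2 -0.33 to 0.38, and scaling to totals that lack mitochondrial and ribosomal protein genes by -0.18 to 0.24. At this depth 3 UMIs were 0.0919 to 0.283 CPM. No paired analysis was possible because a replicate block needs replicate numbers shared between groups, and the labels give none; libraries of equal day and dose were compared pair by pair as a description, with no test.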
